A study of Mus musculus with 6 samples.

Results

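Gstt1 and Gstp3 are 2 genes of the glutathione transferase family that were followed here in mouse tumours grown from cancer cells with or without a CRISPR guide against Uhrf1. They were selected on the difference in their counts between sgUhrf1 and sgNT tumours, and are 2 of the 10767 genes that could be given a row of their own in the deposited count tables, which hold 53599 rows. RNA was measured in 6 tumours of LG1233-OVA, a murine lung cancer line labelled with OVA, the usual short name of the model antigen ovalbumin. The sgUhrf1 group held 3 tumours grown from stable lines made with CRISPR/Cas9 as Uhrf1 knockouts, and the sgNT group held 3 tumours grown from the same line with the non-targeting control guide, listed as wild type. In both groups 1000000 cells were placed under the skin of female C57BL/6 mice and tumours were taken on day 27. The labels name neither the age of the mice nor the number of clones behind a line, and do not place the guide within Uhrf1. Host cells in the tumours carry an intact Uhrf1.

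Glutathione transferases join the tripeptide glutathione to reactive compounds, which makes these compounds easier to export and less likely to damage DNA and protein. Gstt1 encodes a theta-class enzyme known for acting on small halogenated hydrocarbons. Gstp3 encodes a pi-class enzyme beside the better known Gstp1 and Gstp2, whose human relative GSTP1 is a textbook case of a gene with a methylated promoter in prostate cancer. Uhrf1 encodes a chromatin protein known for keeping DNA methylation in place when cells divide.

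The names in the deposited tables belong to another mouse genome build than the reads, so a gene was found by the exons that a row covers in the GENCODE M21 annotation of GRCm38. Gstt1 (ENSMUSG00000001663.10, GRCm38 chr10:75783813-75798584, minus strand) was read from the row listed as Vpreb3, which covers 100 bp of its exons. Gstp3 (ENSMUSG00000058216.13, GRCm38 chr19:4057477-4059569, minus strand) was read from the row listed as Ndufv1, which covers 617 bp of its exons. No other row touched an exon of either gene. The row that carries the name Gstt1 in the tables covered no annotated exon and held 9 counts in all sgUhrf1 tumours together and 2 in all sgNT tumours. The row that carries the name Gstp3 lay over 593 bp of Pitpnm1 and held 1414 counts in sgUhrf1 tumours and 1875 in sgNT tumours.

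The sequences behind the counts are shown because relatives of the family are alike and their reads could be mixed up. The counted exon of Gstt1 is a coding stretch of 100 bases in exon 5 of 5 (chr10:75784134-75784233, minus strand). It is set here beside the aligned stretches of its neighbours Gstt2 and Gstt3, in transcript direction, from the GENCODE M21 transcripts. Capitals mark bases that differ from the member.
Gstt1: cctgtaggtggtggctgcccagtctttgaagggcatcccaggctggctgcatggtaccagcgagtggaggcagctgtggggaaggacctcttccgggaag
Gstt2: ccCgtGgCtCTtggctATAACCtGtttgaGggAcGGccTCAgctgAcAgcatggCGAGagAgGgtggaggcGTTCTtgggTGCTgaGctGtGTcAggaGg
Gstt3: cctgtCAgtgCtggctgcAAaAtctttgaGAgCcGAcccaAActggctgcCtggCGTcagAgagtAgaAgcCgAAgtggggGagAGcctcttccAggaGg
Gstt2 differed at 42 of the 100 bases and Gstt3 at 28. The row of Gstp3 covers several exons, and the longest counted coding stretch that aligned without gaps to its relatives was 108 bases in exon 5 of 6 (chr19:4057888-4057995, minus strand).
Gstp3: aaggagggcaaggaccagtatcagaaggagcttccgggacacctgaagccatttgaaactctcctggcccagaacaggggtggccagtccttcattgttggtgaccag
Gstp1: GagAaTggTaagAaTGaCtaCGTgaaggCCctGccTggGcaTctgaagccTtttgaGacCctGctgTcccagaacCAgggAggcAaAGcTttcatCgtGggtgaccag
Gstp2: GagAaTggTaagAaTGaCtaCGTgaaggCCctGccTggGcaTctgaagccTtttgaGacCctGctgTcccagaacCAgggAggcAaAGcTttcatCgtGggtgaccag
Gstp1 and Gstp2 carried the same letters over this stretch and differed from Gstp3 at 31 of the 108 bases. Over whole coding sequences, Gstt1 was 75.4% identical to Gstt3 and 60.5% to Gstt2. Gstp3 was 72.6% identical to Gstp1 and 73.1% to Gstp2, and Gstt1 and Gstp3 were 47.5% identical to each other. Of all windows of 50 bases in the counted exons, 0 of 51 in Gstt1 and 0 of 256 in Gstp3 occurred in a transcript of another gene. Reads of the members and of these relatives can thus be told apart by sequence in the exons counted, whereas reads of Gstp1 and Gstp2 share stretches.

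Gstt1 and Gstp3 both had higher counts in every sgUhrf1 tumour than in any sgNT tumour. The row of Gstt1 held 536, 637 and 684 counts in sgUhrf1 tumours 1 to 3, against 26, 15 and 9 counts in sgNT tumours 1 to 3. In counts per 1000000 TMM-scaled counts (CPM, the unit of all levels below), Gstt1 stood at 94.9, 101.1 and 150.4 in sgUhrf1 tumours, against 4.12, 2.22 and 1.59 in sgNT tumours. The groups did not overlap, and the lowest sgUhrf1 tumour lay 23.05 times above the highest sgNT tumour. The mean was 115.5 ± 30.4 CPM in sgUhrf1 tumours and 2.65 ± 1.31 CPM in sgNT tumours (SD, n = 3 each), a log2 fold change of 5.43 ± 0.37 (SE), or 43.05-fold.

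The row of Gstp3 held 2469, 2305 and 1577 counts in sgUhrf1 tumours 1 to 3, against 362, 294 and 219 counts in sgNT tumours 1 to 3. These are 437.1, 365.9 and 346.8 CPM in sgUhrf1 tumours, against 57.3, 43.6 and 38.8 CPM in sgNT tumours. Again the groups did not overlap, with the lowest sgUhrf1 tumour 6.05 times above the highest sgNT tumour. The mean was 383.3 ± 47.6 CPM in sgUhrf1 tumours and 46.6 ± 9.61 CPM in sgNT tumours (SD, n = 3 each), a log2 fold change of 3.04 ± 0.21 (SE), or 8.22-fold. Both genes were chosen by this same difference between the groups, so the values and the lack of overlap are a description and carry no test. The share of all genes tested whose groups did not overlap was not counted. Among all genes tested, 42.1% passed an edgeR adjusted p of 0.05 in either direction, with 20.6% of all tested higher and 21.5% lower in sgUhrf1 tumours, shares from which nothing is read for the members. Of the 4579 genes tested, 71 had a larger log2 fold change than Gstt1 and 241 a larger one than Gstp3.

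**Figure D1:**
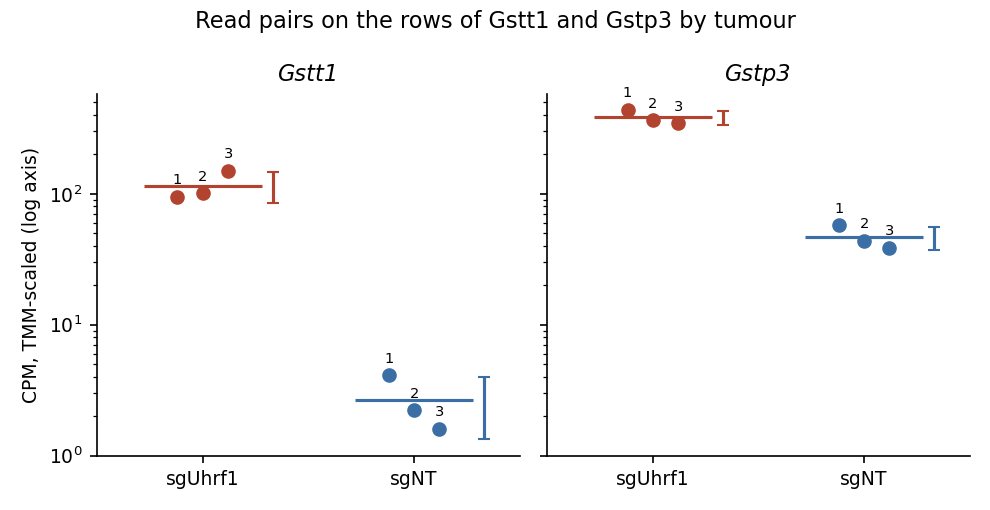
Level of the rows of Gstt1 and Gstp3 in each tumour, in TMM-scaled CPM on a log axis, sgUhrf1 at the left of each panel and sgNT at the right. Points are tumours labelled with their replicate number, lines are means and bars are SD (n = 3); the 3 sgUhrf1 tumours lie above all sgNT tumours for both genes, from 94.9 CPM up for Gstt1 and from 346.8 CPM up for Gstp3.

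The members differed in how they spread within a group. Gstt1 had a coefficient of variation of 26.3% among sgUhrf1 tumours and 49.6% among sgNT tumours, where it rested on 9 to 26 counts. Gstp3 varied by 12.4% among sgUhrf1 tumours and 20.6% among sgNT tumours. In sgUhrf1 tumours Gstt1 was highest in replicate 3, while Gstp3 was highest in replicate 1. In sgNT tumours both were highest in replicate 1 and lowest in replicate 3. The ratio of the CPM of Gstp3 to that of Gstt1 was 4.61, 3.62 and 2.31 in sgUhrf1 tumours, against 13.9, 19.6 and 24.3 in sgNT tumours. The ratio was thus lower in every sgUhrf1 tumour, with no overlap, as the larger fold of Gstt1 implies. As the rows cover different lengths, the ratio is read between tumours only and does not say which transcript is more abundant.

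The rows also take in bases outside the exons. Of the 859 bp in the row of Gstt1, 100 bp (11.6%) are Gstt1 exon, 525 bp are Gstt1 intron and 234 bp lie inside the bodies of Gstt3 and the predicted gene Gm20441. The counted exon is 6.54% of the 1528 exon bp of the gene. Of the 2634 bp in the row of Gstp3, 617 bp (23.4%) are exon, 891 bp intron and 1126 bp outside annotated genes, and the counted exon is 68% of the gene's 908 exon bp. The counts of exon, intron and flank within a row cannot be told apart, and no strand was used in counting. The comparison of sequences above covers the counted exons only. Any reads of Gstt3 or Gm20441 from the 234 bp would therefore count towards the row of Gstt1. Gstt1 lies nearer the minimum of 50 bp of exon than Gstp3, and at a minimum of 200 bp Gstt1 had no row.

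Each tumour gave 5462555 to 6375069 counts over 16051 to 18771 rows with reads, and a count of 0 allows up to 3 counts, or 0.445 to 0.66 CPM, by counting error only. The labels call the tumours biological replicates, and p-values set the difference between groups against the spread among the 3 tumours of each group. They do not speak to how separate knockout lines would vary, as the number of clones behind a line is not named. Uhrf1 itself had 121.3, 73.0 and 89.9 CPM in sgUhrf1 tumours, against 133.2, 135.9 and 98.2 CPM in sgNT tumours, on its row of most counts. The groups overlapped there (log2 fold change -0.37 ± 0.23 SE, edgeR adjusted p = 0.227). On another row over 238 bp of its exons it had 6.90, 4.60 and 7.92 CPM in sgUhrf1 tumours, against 12.03, 19.7 and 9.04 CPM in sgNT tumours, without overlap (-1.08 ± 0.39 SE, adjusted p = 0.0524). Transcript level does not check a CRISPR edit. The sgUhrf1 replicate 1 and sgNT replicate 2 tumours stood apart in skeletal muscle genes, with 374.8 CPM and 452.3 CPM summed over the 4 markers of 12 that had their own row. The other sgUhrf1 tumours had 22.9 and 20.7 CPM of these, and the other sgNT tumours 5.54 and 2.48 CPM. Without both muscle-rich tumours the log2 fold change was 5.43 for Gstt1 and 2.88 for Gstp3.

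The other theta-class genes with a row of their own differed in the same direction as Gstt1. Gstt2, a theta-class enzyme gene 32530 bp from Gstt1, held 229, 319 and 210 counts in sgUhrf1 tumours, against 19, 10 and 2 counts in sgNT tumours. Its log2 fold change was 4.79 ± 0.51 (SE, edgeR adjusted p = 0.000273). Gstt3, 2399 bp from Gstt1, held 263, 437 and 199 counts in sgUhrf1 tumours, against 23, 13 and 11 counts in sgNT tumours, a log2 fold change of 4.40 ± 0.35 (adjusted p = 0.000123). Both rose, as did 20.6% of all genes tested. Their groups did not overlap, but the share of all genes without overlap was not counted. The order of sgUhrf1 tumours was not shared with Gstt1, as Gstt2 and Gstt3 were highest in replicate 2 and Gstt1 in replicate 3. Among sgNT tumours Gstt1, Gstt2 and Gstt3 were each highest in replicate 1, on few counts.

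The other pi-class gene that could be measured did not pass the test. Gstp1, the main pi-class gene of most mouse tissues, held 3339, 3163 and 3317 counts in sgUhrf1 tumours, against 2985, 3292 and 3100 counts in sgNT tumours. Its groups overlapped in counts and in CPM, and the log2 fold change of 0.27 ± 0.19 (SE) did not pass the test (edgeR adjusted p = 0.286). Gstp2 had no row of its own, and the row of Gstp1 may hold some of its reads. Gstp3 and Gstp1 lie 19492 bp apart. The difference between the folds of Gstp3 and Gstp1 was not tested, since Gstp3 was chosen for its fold.

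Over the other genes of the family, 13 of 29 listed had a row of their own and 11 were tested. Of these, 7 rose, 1 fell and 3 did not pass, with a median log2 fold change of 1.48, against -0.0027 over all genes tested, of which 20.6% rose and 21.5% fell. Beside the theta genes, the mu-class gene Gstm2 held 1262, 3189 and 2063 counts in sgUhrf1 tumours, against 447, 200 and 130 counts in sgNT tumours (log2 fold change 3.26 ± 0.46 SE, adjusted p = 0.000996). Gstm7, also of the mu class, rose by 2.13 ± 0.42 on the log2 scale (adjusted p = 0.00423), and Gstk1, the kappa-class gene of mitochondria and peroxisomes, by 1.90 ± 0.56 (adjusted p = 0.0248). The prostaglandin E synthase gene Ptges rose by 1.48 ± 0.25 (adjusted p = 0.00223) and the omega-class gene Gsto1 by 1.22 ± 0.26 (adjusted p = 0.0064). Gsto2, the other omega-class gene, fell by 1.55 on the log2 scale with an SE of 0.53 (adjusted p = 0.0419), on 6 to 11 counts in sgUhrf1 tumours and 18 to 39 in sgNT tumours. The call of Gsto2 was lost under 9 of 15 alternatives, among them leaving out any tumour but sgNT replicate 2 (adjusted p between 0.0579 and 0.202). That of Gstk1 was lost without sgUhrf1 replicate 1 or 2 or sgNT replicate 2 or 3 (adjusted p between 0.0532 and 0.098). It was also lost without the muscle-rich pair (log2 fold change 2.045, adjusted p = 0.117).

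The leukotriene C4 synthase gene Ltc4s (1.09 ± 0.53, adjusted p = 0.131) and the microsomal transferase gene Mgst2 (-0.21 ± 0.29, adjusted p = 0.604) did not pass on the log2 scale. The alpha-class genes Gsta1 and Gsta2 were too low to test in the rows of their own. Gsta1 held 4, 10 and 2 counts in sgUhrf1 tumours and Gsta2 held 3, 0 and 3, and both held 0 in every sgNT tumour. Other transferase genes stood in rows shared with further genes, whose reads cannot be told apart. Among those tested, the row of Gstm1 and predicted genes rose by 0.84 ± 0.20 on the log2 scale (adjusted p = 0.0107), and the row of Gstcd and predicted genes fell by 1.32 with an SE of 0.32 (adjusted p = 0.0108). The rows of Hpgds with Smarcad1 (0.05 ± 0.22, adjusted p = 0.877) and of Gstz1 with Tmed8 (0.24 ± 0.18, adjusted p = 0.332) did not pass. A row of Gsta2 with Ooep and Dppa5a held 24, 18 and 14 counts in sgUhrf1 tumours, against 0, 0 and 1 in sgNT tumours (adjusted p = 0.00142). The list was drawn up with earlier results of these data known, and Gstt1 and Gstp3 are not in its counts.

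**Figure D2:**
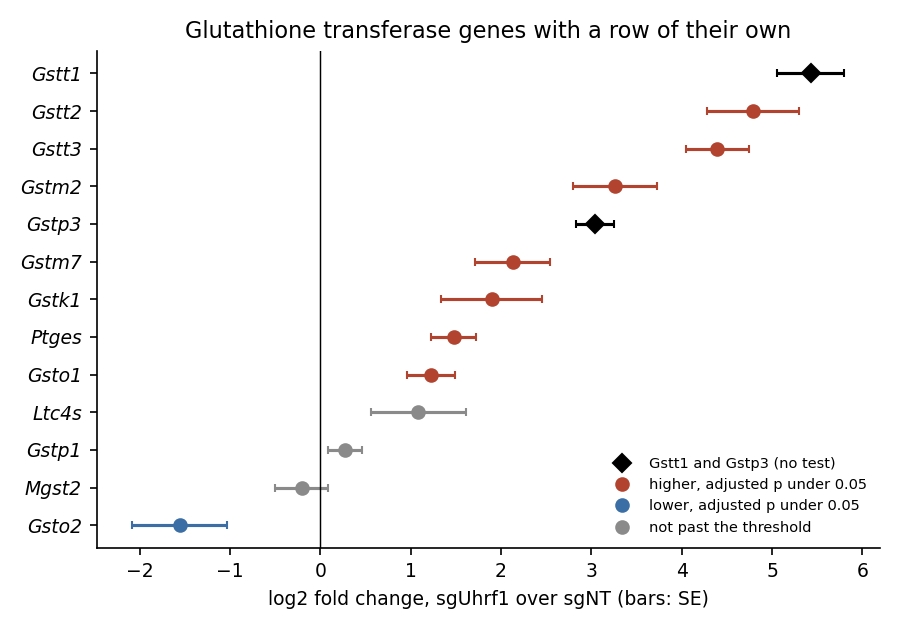
Log2 fold change of sgUhrf1 over sgNT for Gstt1 and Gstp3 (diamonds, no test) and the 11 other tested transferase genes (circles, coloured by the edgeR test), with bars of 1 SE and n = 3 tumours a group. Gstt1, Gstt2 and Gstt3 stand at 5.43, 4.79 and 4.40, while Gstp3 stands at 3.04 and Gstp1 at 0.27.

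Genes near the members on the chromosome were read next. Within 250 kb of Gstt1, 5 of 27 annotated genes had a tested row, and 4 of them rose, namely Gstt2, Gstt3, Ggt5 and Smarcb1, against 20.6% of all genes tested. Ggt5, a gamma-glutamyl transferase gene of glutathione breakdown, rose by 1.32 ± 0.43 on the log2 scale (edgeR adjusted p = 0.0373). Smarcb1, a subunit of the SWI/SNF remodelling complex, rose by 0.89 ± 0.31 (adjusted p = 0.0491). Leaving out any tumour but sgUhrf1 replicate 2 ended the call of Ggt5 (adjusted p between 0.0695 and 0.123), and leaving out any but sgUhrf1 replicate 3 ended that of Smarcb1 (adjusted p between 0.0724 and 0.157). The fifth gene, the calcineurin-binding Cabin1, did not pass (0.26 ± 0.19, adjusted p = 0.296).

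Within 250 kb of Gstp3, 13 of 48 annotated genes had a tested row, of which 1 rose, 1 fell and 11 did not pass, where 42.1% of all genes tested passed. Unc93b1, which carries Toll-like receptors to endosomes, held 2683, 1624 and 2689 counts in sgUhrf1 tumours, against 791, 730 and 508 counts in sgNT tumours (log2 fold change 2.03 ± 0.30 SE, adjusted p = 0.00113). Coro1b, an actin-binding coronin gene, fell by 1.04 with an SE of 0.23 (adjusted p = 0.00669). Ndufv1, the complex I gene whose name the row of Gstp3 carries, was at -0.05 ± 0.16 in its own row (adjusted p = 0.848). Pitpnm1, a phosphatidylinositol transfer gene, was at -0.26 ± 0.21 (adjusted p = 0.351).

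**Figure D3:**
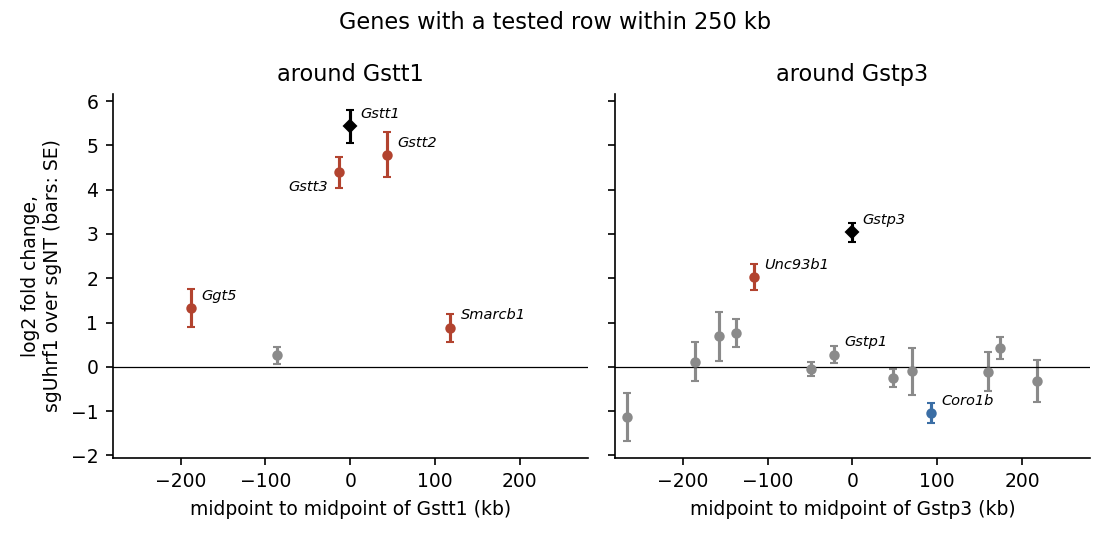
Log2 fold change of sgUhrf1 over sgNT (bars of 1 SE, n = 3 tumours a group) against the distance between gene midpoints in kb, for tested genes within 250 kb of Gstt1 (left) and Gstp3 (right), the members as black diamonds. Red genes rose, blue genes fell and grey genes did not pass; near Gstt1 the 2 theta genes stand at 4.79 and 4.40, and near Gstp3 only Unc93b1 (2.03) and Coro1b (-1.04) passed.

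The promoters of the members are shown because Uhrf1 is known for DNA methylation, whose usual target is the CpG dinucleotide; methylation itself was not measured. Each is the RefSeq window on GRCm38.p6 of 250 bases before and 50 bases after the annotated start, in transcript direction, with CpG in capitals. The RefSeq start of Gstt1 lies 853 bp inside the outermost GENCODE start of the gene.
Gstt1, chr10:75797682-75797981, minus strand: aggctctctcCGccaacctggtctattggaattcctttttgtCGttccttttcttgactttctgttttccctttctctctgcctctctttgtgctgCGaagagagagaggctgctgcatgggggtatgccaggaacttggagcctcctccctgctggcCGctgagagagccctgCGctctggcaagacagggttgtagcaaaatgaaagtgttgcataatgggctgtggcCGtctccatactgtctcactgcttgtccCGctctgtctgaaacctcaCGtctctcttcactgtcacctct
Gstp3, chr19:4059398-4059697, minus strand: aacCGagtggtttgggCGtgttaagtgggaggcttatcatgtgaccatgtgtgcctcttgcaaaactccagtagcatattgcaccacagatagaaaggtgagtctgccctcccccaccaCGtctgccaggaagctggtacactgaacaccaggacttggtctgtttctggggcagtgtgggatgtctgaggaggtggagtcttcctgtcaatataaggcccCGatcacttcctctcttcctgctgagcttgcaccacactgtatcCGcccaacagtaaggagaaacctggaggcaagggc
The Gstt1 window held 8 CpG and the Gstp3 window 5, against a median of 7 over 32851 mouse windows of the same length. The ratio of observed to expected CpG was 0.383 for Gstt1 and 0.232 for Gstp3, against a median of 0.384. Neither window stood out among all promoters, with 51.4% of windows holding fewer CpG than that of Gstt1 and 38.0% fewer than that of Gstp3. Gstt3 held 3 CpG, whereas Gstp1 held 20 with an observed to expected ratio of 0.682. Gstt2 is named only.

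Some known motifs were looked up in these windows on both strands, with overlap between motifs allowed. TGACNNNGC, the antioxidant response element bound by NRF2, was in neither member and in 12.4% of all windows. GCGTG, the core that the dioxin receptor Ahr binds, occurred 1 time in Gstp3, in none of Gstt1 and in 32.4% of all windows. The interferon-response pattern, written as TTTC, a pair of free bases and TTTC again, occurred 1 time in Gstt1, in none of Gstp3 and in 3.4% of all windows. A match of letters is not a bound site, and its lack says nothing of the factor.

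Across the tumours, the genes most like each member were ranked by Pearson r of log2 CPM (prior count 2) over all 6 tumours, among 4255 tested genes. The points share the 2 groups and the libraries, so any gene that differs cleanly between groups scores high: 335 genes had an r over 0.95 with Gstt1 and 278 with Gstp3. The 5 most like Gstt1 were Plcb3 (r = 0.9992), Fbxl12 (0.999), Oas2 (0.9989), M6pr (0.9983) and Gsdmd (0.9982). Plcb3 encodes a phospholipase, Fbxl12 an F-box protein, Oas2 an interferon-induced antiviral enzyme, M6pr a mannose 6-phosphate receptor and Gsdmd the pore-forming gasdermin D. Of these, Oas2 came nearest in size, with 39.1, 36.7 and 59.6 CPM in sgUhrf1 tumours, against 3.48, 1.78 and 1.42 CPM in sgNT tumours. Like Gstt1, it was highest in replicate 3 among sgUhrf1 tumours and in replicate 1 among sgNT tumours, a likeness that the choice by r favours.

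The 5 most like Gstp3 were Tbx2 (r = 0.9998), Cdh19 (0.9984), Setd1b (0.9955), Kat14 (0.9952) and Ikbkb (0.9942). Tbx2 is a T-box transcription factor gene, Cdh19 a cadherin gene, Setd1b a histone methyltransferase gene, Kat14 an acetyltransferase gene and Ikbkb the kinase gene of the NF-kappa-B pathway. Tbx2 had 12.2, 10.6 and 10.1 CPM in sgUhrf1 tumours, against 1.27, 0.889 and 0.709 CPM in sgNT tumours, the latter on 8, 6 and 4 counts. Its order of tumours was that of Gstp3, which the choice by r favours. Cdh19 held 39, 28 and 23 counts in sgUhrf1 tumours and 1, 0 and 0 in sgNT tumours. Plcb3, listed above for Gstt1, differed by 0.64 on the log2 scale in its row and by -0.016 with its rows summed. Kat14 differed by 0.40 on the log2 scale in this row, and by -0.82 in a row with at least 200 bp of its exons. The 2 members had an r of 0.9907 with each other, which placed Gstp3 at rank 36 for Gstt1 and Gstt1 at rank 18 for Gstp3.

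Markers of several cell types were also counted, and only some of the lists moved with the members. Of all genes tested, 20.6% were higher and 21.5% lower. By the edgeR test, 0 of 3 tested macrophage markers, 0 of 4 endothelial, 0 of 2 skeletal muscle and 0 of 1 adipocyte markers passed. The 1 tested marker of skin and hair, Lor, fell (adjusted p = 0.00389). Simple epithelium, with 3 of 9 markers in a row of their own, summed to 1681, 2811 and 2106 CPM in sgUhrf1 tumours, against 435.8, 246.1 and 155.1 CPM in sgNT tumours, and both tested markers (Cdh1 and Krt7) rose. Enterocyte markers, with 4 of 9 in a row of their own, summed to 1459, 2841 and 1757 CPM in sgUhrf1 tumours, against 404.6, 271.3 and 311.9 CPM in sgNT tumours. Vil1, Cdh17 and Lgals4 rose, while Krt20 did not pass (log2 fold change 0.35 ± 0.28 SE, edgeR adjusted p = 0.356). Krt20 made up most of the sgNT sums, with 235.8, 186.5 and 269.7 CPM, against 173.9, 379.5 and 328.1 CPM in sgUhrf1 tumours. Among sgNT tumours Krt7 had the order of Gstt1 and Gstp3, with 1195, 587 and 110 counts in replicates 1 to 3. In CPM, Cdh1, Vil1, Cdh17 and Lgals4 had this order too, whereas Krt20 and Krt19 did not. In sgUhrf1 tumours both epithelial sums were highest in replicate 2, in which neither member was highest. T cell markers, 4 of 9 with a row and all 4 higher, summed to 79.7 to 204 CPM in sgUhrf1 tumours and 7.26 to 23.4 CPM in sgNT tumours.

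Fibroblast markers, 5 of 8 with a row and 2 of them lower, summed to 7303 to 17360 CPM in sgUhrf1 tumours and 11710 to 18710 CPM in sgNT tumours. Of the 8 hepatocyte markers 1 had a row of its own, Cyp2e1, with 3, 0 and 104 counts in sgUhrf1 tumours and 0, 2 and 40 in sgNT tumours. Of the 11 lung epithelial markers 3 had a row, and the sum was 11.7 to 70.6 CPM in sgUhrf1 tumours and 1.95 to 3.33 CPM in sgNT tumours. Most of the sgUhrf1 sum came from Sftpd, a surfactant protein gene with 49, 409 and 258 counts in sgUhrf1 tumours, against 1, 5 and 1 in sgNT tumours (adjusted p = 0.000775). Sftpb did not pass, and Cyp2f2 held 0, 0 and 4 counts in sgUhrf1 tumours and 0 in every sgNT tumour. The part of these cell types in the levels of Gstt1 and Gstp3 was not tested. In bulk tumours a change in the number of cells and a change in RNA per cell cannot be told apart.

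**Figure D4:**
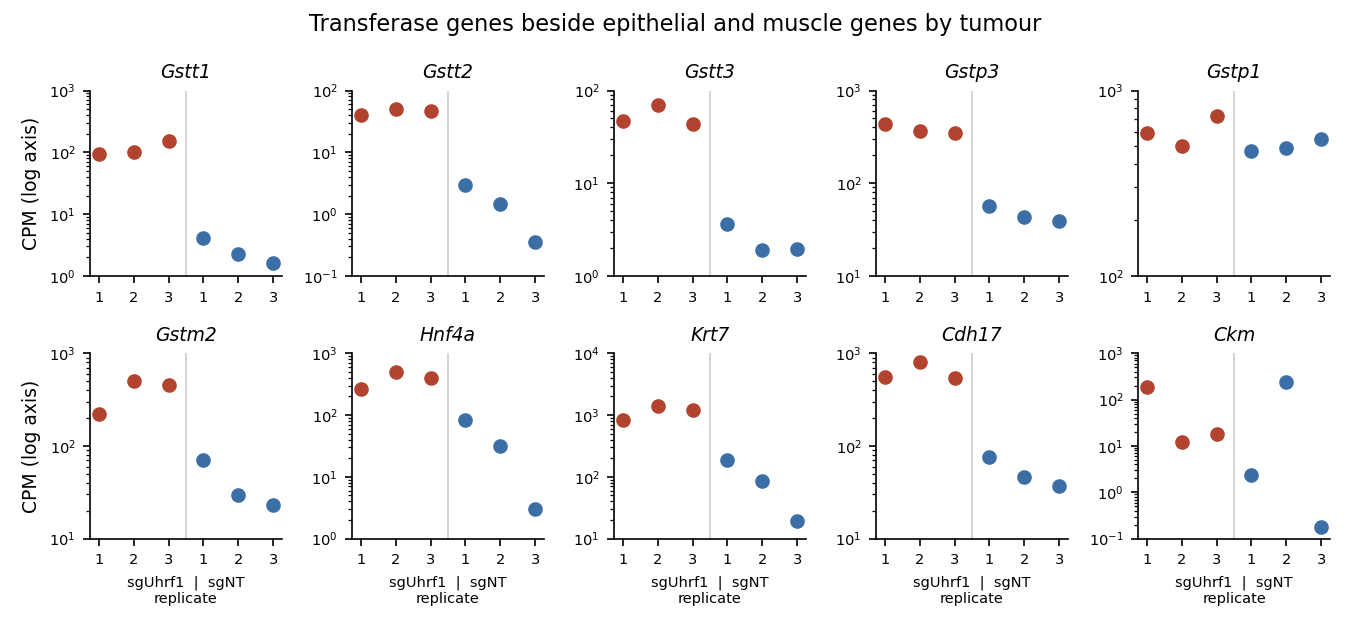
CPM in each tumour on log axes, sgUhrf1 replicates 1 to 3 (red) left of sgNT replicates 1 to 3 (blue), for 6 transferase genes, the epithelial genes Hnf4a, Krt7 and Cdh17 and the muscle gene Ckm. Gstt1, Gstt2, Gstt3, Gstp3 and Gstm2 are higher in all sgUhrf1 tumours, Gstp1 overlaps between groups, and Ckm is high in sgUhrf1 replicate 1 and sgNT replicate 2.

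Genes of the pathways around the members were counted next; of all genes tested, 42.1% passed, 20.6% higher and 21.5% lower. Of 26 genes of glutathione synthesis, cystine import and breakdown, 11 were tested, of which 3 rose and 1 fell (median log2 fold change 0.595), a share near that over all genes. Gclc, the catalytic subunit of the rate-limiting synthesis enzyme, rose by 1.38 ± 0.37 (SE, edgeR adjusted p = 0.0175) and the gamma-glutamyl transferase family gene Ggt7 by 3.75 ± 0.60 (adjusted p = 0.00161). Abcc1, a pump that exports glutathione conjugates, fell by 2.43 with an SE of 0.33 (adjusted p = 0.000803). The call of Gclc was lost without sgUhrf1 replicate 2 (adjusted p = 0.0564), sgNT replicate 2 (0.0607) or sgNT replicate 3 (0.0572). Without the muscle-rich pair of tumours 1 gene of this list rose.

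Of 25 genes of the NRF2 pathway, the main route by which oxidants induce transferase genes, 4 were tested and all 4 rose (median 1.22). These were the carbonyl reductase gene Cbr3 (3.56 ± 0.54, adjusted p = 0.00134), the epoxide hydrolase gene Ephx1 (1.35 ± 0.26, adjusted p = 0.00376), the malic enzyme gene Me1 (1.08 ± 0.20, adjusted p = 0.00314) and the aldo-keto reductase gene Akr1b10 (0.91 ± 0.28, adjusted p = 0.0288), on the log2 scale. Nfe2l2, which encodes NRF2, and Nqo1 had no row of their own. The call of Akr1b10 was lost when any tumour but sgNT replicate 1 was left out (adjusted p between 0.0518 and 0.125). Of 29 peroxidase, thioredoxin and glutaredoxin genes 6 were tested, and 2 rose, the extracellular superoxide dismutase gene Sod3 (2.10 ± 0.53, adjusted p = 0.0128) and the glutaredoxin gene Glrx (1.01 ± 0.28, adjusted p = 0.0193), with a median of 0.49. This share too was near that over all genes. Glrx lost its call without sgNT replicate 1 (adjusted p = 0.0519) or 2 (0.0886). Without the muscle-rich pair, in a fit with fewer tumours and fewer calls over all genes, 0 of the list rose by this test. The log2 fold change there was 1.95 for Sod3 (adjusted p = 0.0847) and 1.07 for Glrx (0.0804).

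Of 46 other genes of foreign-compound metabolism and its regulators 9 were tested, and 6 rose and 1 fell (median 1.75). Hnf4a, a transcription factor of liver and gut that acts on many such enzyme genes, held 1507, 3086 and 1826 counts in sgUhrf1 tumours, against 516, 210 and 17 counts in sgNT tumours (log2 fold change 3.32 ± 0.82 SE, adjusted p = 0.0117). The cytochrome P450 gene Cyp3a13 rose by 4.55 ± 0.67 (adjusted p = 0.00114), the glucuronosyltransferase gene Ugt2b34 by 2.21 ± 0.67 (adjusted p = 0.028), Cyp2j6 by 2.15 ± 0.41 (adjusted p = 0.00394) and the epoxide hydrolase gene Ephx2 by 1.75 ± 0.35 (adjusted p = 0.00451). Aldh2, the mitochondrial aldehyde dehydrogenase gene, fell by 1.29 with an SE of 0.17 (adjusted p = 0.000735). Without the muscle-rich pair 3 of this list rose, again in a fit with fewer tumours and fewer calls over all genes. Hnf4a (log2 fold change 3.385, adjusted p = 0.053) and Ugt2b34 (2.31, adjusted p = 0.095) were among those lost. The call of Ugt2b34 was also lost without sgUhrf1 replicate 2 (adjusted p = 0.113), sgNT replicate 2 (0.0912) or sgNT replicate 3 (0.0616). These lists too were drawn up with earlier results known, and each count is small beside its list because few genes had a row of their own.

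**Figure D5:**
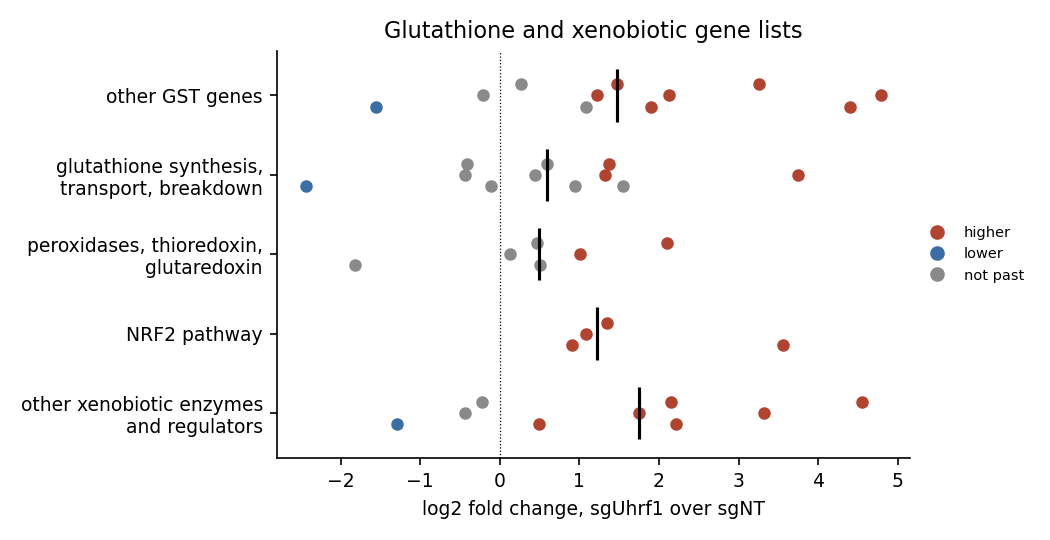
Log2 fold change of sgUhrf1 over sgNT (n = 3 tumours a group) for the tested genes of each list, 1 point a gene, coloured by the edgeR test, with a bar at the list's median; Gstt1 and Gstp3 are left out. Medians run from 0.49 for peroxidases and thioredoxins to 1.75 for other xenobiotic genes, and the other transferases stand at 1.48.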

How the data were processed

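RNA of 6 tumours was sequenced from poly-A selected libraries. The authors deposited raw counts of read pairs, a table for each tumour. The tools named in the submitters' processing notes are fastp, STAR and featureCounts, with GRCm38 as build. Counting was done by featureCounts 2.0.1, per the file headers, without strand and on the GENCODE M26 annotation, which belongs to another build. Rows were therefore named by position: a row took a gene's name where its listed intervals cover at least 50 bp of exons of 1 GENCODE M21 gene, small RNAs aside, and the row with most counts stood for a gene. Of 53599 rows, 13432 were named, with 41.4% of the counts; 4948 cover several genes.

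All rows passing filterByExpr (minimum count 10, minimum total 15) were fitted in edgeR 4.0.16 (R 4.3.3, quasi-likelihood F test) with TMM scaling and Benjamini-Hochberg adjustment over 10503 rows, at a threshold of 0.05. This gave 2121 higher and 2066 lower rows, and 945 higher and 985 lower among 4579 named genes. SE is the log2 fold change over the root of F. Gstt1 and Gstp3 got no test. Genes named are the members, the tested transferases, the list members with the largest changes, called neighbours within 250 kb and the 5 most alike; Cabin1, Ndufv1 and Pitpnm1 were added as neighbours. Members and lists were chosen with earlier results of these data known. Alternatives were RLE or library-total scaling, other filters, DESeq2 1.42.0, limma-voom (limma 3.58.1), a replicate block, summed rows, a minimum of 200 bp, and leaving out tumours. Sequences come from GENCODE M21 transcripts and RefSeq (GRCm38.p6) promoters.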

Additional observations from a re-analysis of the deposited data

How the results depend on the processing

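Gstt1 and Gstp3 kept their direction under every alternative run. The log2 fold change of Gstt1 lay between 5.18 and 5.86 over 15 alternatives, and that of Gstp3 between 2.88 and 3.19 over 16; leaving out 1 tumour at a time gave 5.18 to 5.86 and 2.92 to 3.19. The count of other transferase genes that rose, 7, ran from 5 to 8. The single fall, Gsto2, was lost (0 genes lower) with no low-count filter, with a stricter filter (too few counts to be tested), in limma-voom, with the replicate block and without the 2 muscle-rich tumours, and leaving out 1 tumour at a time gave 0 to 1. Without the muscle-rich tumours, 1094 rows were higher and 771 lower, and 522 named genes were higher and 384 lower. Leaving out 1 tumour at a time, rows higher ran from 1431 to 2020 and lower from 1259 to 1908, and named genes higher from 657 to 921 and lower from 613 to 902; the lows of 1259 and 613 came without sgNT replicate 2. The cause was not tested. Ndufv1 lay between -0.104 and 0.025 when 1 tumour was left out, with the positive value without sgUhrf1 replicate 1, and at 0.005 without the muscle-rich tumours. Cabin1 turned to -0.04 and Plcb3 to -0.016 with rows of a gene summed, and Kat14 to -0.82 at a minimum of 200 bp, where another row stands for it. Mgst2 passed without sgUhrf1 replicate 2 (-0.65, adjusted p = 0.0397). Library totals moved the median log2 fold change of all rows to -0.14 and no filter to 0.12, against 0.02 in the fit reported. Deviations of same-numbered tumours from their group means had correlations of -0.079, -0.021 and 0.05, against -0.065 to 0.11 for tumours of different numbers. With 3 tumours a group, these values cannot decide whether same-numbered tumours share more than a number. With the replicate block, 1838 rows were higher and 1807 lower, and Gstt1 stood at 5.43 and Gstp3 at 3.05. Gsto2, Ggt5, Smarcb1 and Arnt lost their call there. The fold of Gstt1 is limited by its 9 to 26 counts in sgNT tumours and by its row, of which 100 of 859 bp are its exon.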
